A study of Mus musculus with 15 samples.

Results

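Genes of the red blood cell program were followed across the whole time course: the alpha globins Hba-a1 and Hba-a2, the beta globins Hbb-bs and Hbb-bt, and Alas2. They are 5 of 32543 genes in the count table and 5 of the 15494 genes that passed the filter on low counts. The genes were selected on these same samples, because their levels were higher on day 7 than on day 0, so the day 7 values below are descriptions without a test. RNA came from 15 subcutaneous tumors of WEHI-164, a BALB/c fibrosarcoma line, grown in wild-type female BALB/c mice. Untreated tumors of 3 mice formed the day 0 group. The other groups, of 3 mice each, received poly(I:C) into the tumor daily and were harvested on day 1, day 3, day 5 or day 7. This RNA duplex, made synthetically, is sensed by Toll-like receptor 3. The labels give 1 µg in 25 µL a day for a planned 6 doses, but sources differ and the dose is not certain. Tissue around each tumor was removed before RNA was taken. The time course was run once, and all tumors after day 0 were treated, so time and treatment cannot be told apart.

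Hemoglobin, the oxygen carrier of red blood cells, is built from alpha and beta globin chains that each hold a heme group. Alas2 encodes the erythroid form of the enzyme that starts heme synthesis, while its relative Alas1 serves other cells. Globin genes are switched on by the transcription factors GATA1 and KLF1 as red cell precursors mature in bone marrow and, in mice, spleen. Reticulocytes, the young red cells released into blood, have lost their nucleus but still hold globin RNA. Red blood cells are removed mainly by macrophages, where Hmox1 breaks heme down and ferritin stores the iron.

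The sequences below show why the members of each globin pair cannot be cleanly separated by counting. On GRCm38, Hba-a1 lies at chr11:32283511-32284465 and Hba-a2 at chr11:32296489-32297298, both on the plus strand. Hbb-bs lies at chr7:103826534-103828096 and Hbb-bt at chr7:103812524-103813996, both on the minus strand, and Alas2 at chrX:150547375-150570638 on the plus strand (GENCODE M21). The 429 coding bases of Hba-a1 and Hba-a2 differ at 1 position, C381T, with the Hba-a1 base first and positions counted from 1 at the start codon. The 444 coding bases of Hbb-bs and Hbb-bt also differ at 1 position, C417T, with the Hbb-bs base first. Neither change alters the amino acid. The 41 coding bases around each difference are shown with the differing base in capitals:
Hba-a1: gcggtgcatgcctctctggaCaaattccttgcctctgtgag
Hba-a2: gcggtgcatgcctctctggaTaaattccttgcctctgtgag
Hbb-bs: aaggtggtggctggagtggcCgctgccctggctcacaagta
Hbb-bt: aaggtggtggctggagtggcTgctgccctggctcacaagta

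Of the 100-base windows in the main Hba-a2 transcript, the length of a read here, 74.5% also occur in Hba-a1, and 62.6% of those in Hbb-bs also occur in Hbb-bt. No 100-base window is shared between Hba-a1 and Hbb-bs. Reads that fit both members of a pair were divided between them by the authors' quantification, so the level of a pair is firmer than that of its members. The reference carries the Hbb-bs and Hbb-bt alleles of C57BL/6 mice, whereas BALB/c mice carry the Hbb-b1 and Hbb-b2 alleles, which were not analysed here.

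The promoters are shown as background, and whether their sequence has a part in the levels measured here was not tested. RefSeq windows upstream of the transcription start on GRCm38.p6 were found for all 5 genes, and capitals mark the GATA motif GATAA, the KLF motif CACCC and the box CCAAT on either strand, with TATAA marked on the strand of the gene. Bases inside a longer GENCODE transcript were left out, and the Hba-a1 window equals that of Hba-a2 shifted by 3 bases over all 247 bases compared:
Hba-a2, chr11:32296242-32296488, plus strand: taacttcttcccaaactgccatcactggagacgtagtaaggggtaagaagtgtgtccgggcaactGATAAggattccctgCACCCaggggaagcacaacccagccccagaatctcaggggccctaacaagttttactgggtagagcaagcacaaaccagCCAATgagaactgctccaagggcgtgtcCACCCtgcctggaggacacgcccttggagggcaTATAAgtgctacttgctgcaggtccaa
Hbb-bs, chr7:103827929-103828178, minus strand: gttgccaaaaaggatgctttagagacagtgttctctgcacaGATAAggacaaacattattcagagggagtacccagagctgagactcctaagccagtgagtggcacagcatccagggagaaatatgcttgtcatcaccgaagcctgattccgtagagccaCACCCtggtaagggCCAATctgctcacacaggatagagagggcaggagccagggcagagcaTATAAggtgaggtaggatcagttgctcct
Alas2, chrX:150547167-150547374, plus strand: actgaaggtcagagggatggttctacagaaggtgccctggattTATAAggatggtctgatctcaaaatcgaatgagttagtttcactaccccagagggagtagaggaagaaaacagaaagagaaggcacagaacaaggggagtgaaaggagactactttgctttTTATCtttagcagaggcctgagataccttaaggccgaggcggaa

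Counted back from the RefSeq start, TATAA began at -30 in Hba-a2, -29 in Hbb-bs and -28 in Hbb-bt, whereas in Alas2 it was found at -207 only. CCAAT on the gene's own strand began at -91 in Hba-a2, -76 in Hbb-bs and -75 in Hbb-bt and was not among the letters of the Alas2 window. CACCC began at -170 and -63 in Hba-a2, at -90 in Hbb-bs and at -140, -104 and -89 in Hbb-bt. Alas2 held it on the opposite strand at -40, -35 and -30, past the end of the stretch shown. GATAA was present in all 5 windows, on the gene's own strand in the globins and on the opposite strand at -86 in Alas2. These letters are common, since GATAA occurred in 22.6%, CACCC in 52%, CCAAT in 33.8% and TATAA in 16% of 32851 promoter windows of 250 bases.

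The libraries held between 23.7 and 31.9 mega-counts. Levels are given as counts per mega-count of library (CPM), on which scale the limit of 3 counts that a count of 0 allows lay between 0.094 and 0.127. Fibrosarcoma and mesenchymal markers such as Vim and Col1a1 were abundant in every tumor, with a summed level of at least 9630 CPM. A single tumor, day 3 replicate 1, stood apart from the rest, with a mean correlation of 0.884 to the others against at least 0.956 for each of the other 14, and it held 3696 CPM of the skeletal muscle genes against at most 190 CPM in any other tumor.

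Globin RNA was high in some tumors and low in their neighbors of the same day. Hba-a1 measured 4.52, 8.26 and 3.48 CPM in the day 0 tumors and 7.08, 51.1 and 67.6 CPM on day 7, in the order of replicates 1 to 3. Replicates 2 and 3 of day 7 were well above every untreated tumor, whereas replicate 1 lay below the highest of them. Hba-a2 measured 1.01, 1.60 and 1.40 CPM on day 0 and 2.56, 17.6 and 22.4 CPM on day 7. For this gene the ranges did not overlap, with the lowest day 7 value again in replicate 1.

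The beta globins were likewise highest in day 7 replicates 3 and 2. Hbb-bs, the member of the pair assigned more counts, measured 5.66, 9.34 and 3.20 CPM on day 0 and 14.1, 56.3 and 96.6 CPM on day 7. Hbb-bt measured 1.72, 2.46 and 0.880 CPM on day 0 and 4.60, 20.2 and 31.3 CPM on day 7. Neither gene overlapped between the 2 days, and replicate 1 was the lowest day 7 tumor for both. Alas2 was rare, at 0.506, 0.335 and 0.520 CPM on day 0 and 0.691, 1.86 and 3.26 CPM on day 7, which rested on 15, 9 and 13 counts and on 17, 49 and 78 counts. Its ranges did not overlap either, although replicate 1 exceeded the untreated tumors by only a few counts. Alas2 passed the filter on low values in 9 of 15 tumors, among them all 3 of day 7 and 2 of 3 of day 0, whereas each globin passed in all 15.

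Against day 0, the fitted log2 difference on day 7 was 2.95 for Hba-a1, 3.40 for Hba-a2, 3.19 for Hbb-bs, 3.47 for Hbb-bt and 2.08 for Alas2. The median of the 5 genes was 3.19, beside a median of -0.02 over all genes. Without day 7 replicate 3 the median of the 5 was 2.53, and without day 7 replicate 1 it was 3.65. All 3 tumors of day 7 exceeded all 3 of day 0 for 4 of the 5 genes, beside 5.02% of all genes tested; this contrast chose the genes and nothing is read from the count. Against day 5, the day 7 log2 differences ran from 1.75 to 1.95, and against day 3 from 2.71 to 3.19. In bulk RNA, fewer cells of a type and less RNA per cell cannot be told apart.

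**Figure D1:**
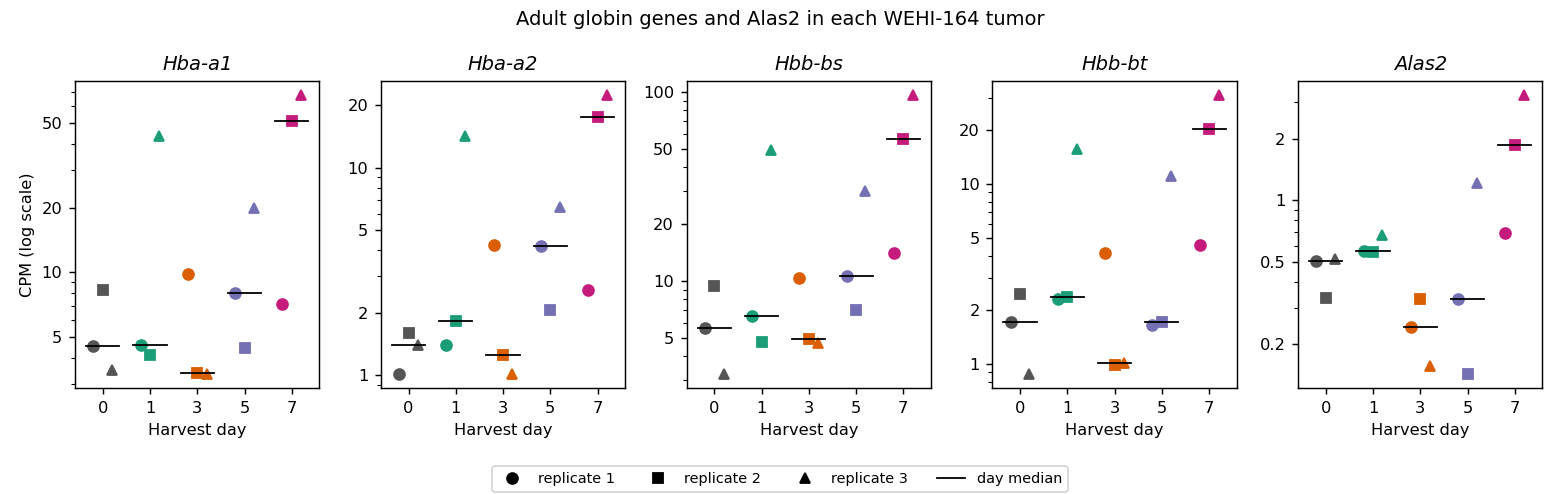
Level of each gene (CPM, log scale, one panel per gene) in the 3 tumors of each harvest day, with marker shape for the replicate and a line at the day median. The 4 globins are highest in day 7 replicates 2 and 3, day 1 replicate 3 and day 5 replicate 3, in which Hba-a1 measured 51.1, 67.6, 43.4 and 20.1 CPM, while Alas2 in day 1 replicate 3 was 0.680 CPM.

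The comparisons with day 1, 3 and 5 asked whether the genes differed earlier in treatment. They share the untreated tumors with the contrast that chose the genes. On day 1, Hba-a1 measured 4.58, 4.11 and 43.4 CPM, and Hbb-bs 6.48, 4.74 and 49.6 CPM. For both genes replicates 1 and 2 lay within the untreated range, and replicate 3 lay between day 7 replicate 1 and the higher tumors of day 7. Hbb-bt, with 2.30, 2.35 and 15.6 CPM, showed the same picture. Hba-a2 measured 1.40, 1.83 and 14.2 CPM, so that its replicate 2 was slightly above every untreated tumor. Alas2 measured 0.568, 0.558 and 0.680 CPM, without a tumor that stood out.

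The log2 difference on day 1 was 1.68 (SE 0.99) for Hba-a1, 2.12 (SE 0.96) for Hba-a2, 1.74 (SE 0.92) for Hbb-bs and 0.41 (SE 0.68) for Alas2, and that of Hbb-bt (SE 1.03) lay between those of Hbb-bs and Hba-a2. None of the 5 genes was called at an adjusted p under 0.05 with edgeR's quasi-likelihood test, beside 0% of all genes, and none with DESeq2, beside 0.259%. At an unadjusted p under 0.05, edgeR counted 1 of 5, Hba-a2 (adjusted p = 1.00 with edgeR), beside 3.16% of all genes. Alas2 alone did not overlap with day 0, beside 12.4% of all genes without overlap. Without day 1 replicate 3, the log2 difference was -0.32 for Hba-a1 and -0.11 for Hbb-bs, but 0.28 for Hba-a2, 0.46 for Hbb-bt and 0.31 for Alas2. The median of the 5 then fell from 1.74 to 0.28.

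On day 3 the globins lay near the untreated level in all but a single tumor. Hba-a1 measured 9.82, 3.38 and 3.34 CPM, Hba-a2 4.23, 1.25 and 1.01 CPM, Hbb-bs 10.3, 4.89 and 4.67 CPM, and Hbb-bt 4.15, 0.992 and 1.01 CPM. The highest value of each was in replicate 1, the tumor that stood apart. Alas2 measured 0.242, 0.331 and 0.156 CPM, on 6, 9 and 4 counts, below every untreated tumor. The log2 differences from day 0 were 0.02 (SE 0.98) for Hba-a1, 0.69 (SE 0.95) for Hba-a2, 0.12 (SE 0.91) for Hbb-bs, 0.28 (SE 1.02) for Hbb-bt and -0.89 (SE 0.72) for Alas2. None of the 5 was called by edgeR after adjustment (0% of all genes), by unadjusted p (30.0% of all genes) or by DESeq2 (13.5% of all genes). Alas2 was again the only one of the 5 without overlap, beside 38.3% of all genes. Without day 3 replicate 1 the 4 globin differences were negative, at -0.69, -0.23, -0.34 and -0.75.

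On day 5 a single tumor was high once more. Hba-a1 measured 7.98, 4.45 and 20.1 CPM, Hbb-bs 10.6, 6.97 and 29.8 CPM, and Hbb-bt 1.65, 1.71 and 11.1 CPM. Replicate 3 held the highest value of each, below day 1 replicate 3 and day 7 replicates 2 and 3. Hba-a2 measured 4.17, 2.06 and 6.43 CPM, all above day 0, and was the only 1 of 5 without overlap, beside 17.7% of all genes. Alas2 measured 0.329, 0.142 and 1.22 CPM, on 9, 4 and 34 counts, so that replicate 3 held its highest level before day 7.

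The log2 differences of day 5 from day 0 were 1.00 (SE 0.98) for Hba-a1, 1.66 (SE 0.95) for Hba-a2, 1.38 (SE 0.91) for Hbb-bs, 1.51 (SE 1.02) for Hbb-bt and 0.31 (SE 0.68) for Alas2. No gene of the 5 was called by edgeR (adjusted 0%, unadjusted 4.80% of all genes) or by DESeq2 (0.0648% of all genes). Without day 5 replicate 3 the difference was -0.01 for Hbb-bt and -0.93 for Alas2, but 0.20 for Hba-a1, 1.22 for Hba-a2 and 0.54 for Hbb-bs. The median of the 5 then fell from 1.38 to 0.20.

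Consecutive days that share no tumor with the choosing contrast were compared as well. Day 3 minus day 1 ran from -1.72 in Hbb-bt to -1.29 in Alas2, with a median of -1.62 beside -0.03 over all genes. Day 5 minus day 3 ran from 0.97 in both alpha globins to 1.26 in Hbb-bs, with a median of 1.20 beside 0.00. Neither comparison called any of the 5 genes by edgeR's adjusted p (0% of all genes in both), by its unadjusted p (18.4% and 7.93% of all genes) or by DESeq2 (0.182% and 0%). Alas2 was the only one of the 5 without overlap between day 3 and day 1, beside 14.3% of all genes, and none of the 5 lacked overlap between day 5 and day 3, beside 9.84%. Without day 1 replicate 3, day 3 minus day 1 was 0.35 for Hba-a1, 0.42 for Hba-a2 and 0.24 for Hbb-bs, but -0.18 for Hbb-bt and -1.19 for Alas2. Without day 5 replicate 3, day 5 minus day 3 was -0.29 for Hbb-bt and -0.05 for Alas2, with the other globins between 0.17 and 0.53.

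**Figure D2:**
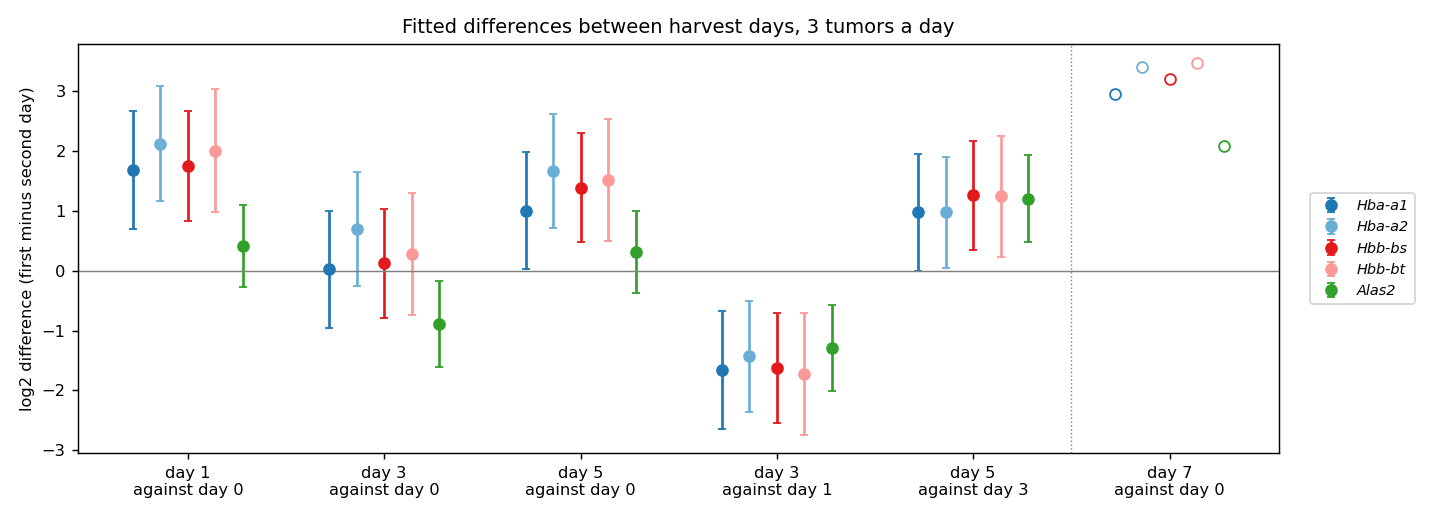
Fitted log2 differences between harvest days for the 5 genes, with bars of 1 standard error for the tested comparisons and open circles without error for day 7 against day 0, which chose the genes. The differences of the 4 globins on day 1 run from 1.68 to 2.12 with standard errors near 1, and those on day 7 from 2.95 to 3.47.

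The spread between tumors of a day was wide in the globins and rested on the same tumors. The highest day 1 tumor held 10.6 times the lowest for Hba-a1, 10.1 times for Hba-a2, 10.5 times for Hbb-bs and 6.76 times for Hbb-bt, against 1.22 times for Alas2. On day 0 the same ratio lay between 1.55 for Alas2 and 2.92 for Hbb-bs. On day 5 it was widest for Alas2, at 8.58 on few counts, against 3.12 to 6.76 for the globins. On day 7 it was 4.71 for Alas2 and 6.81 to 9.55 for the globins. As mean ± SD over 3 tumors, Hbb-bs measured 6.07 ± 3.09 CPM in untreated tumors. It measured 20.3 ± 25.4 CPM in the day 1 tumors and 6.61 ± 3.17 CPM in those of day 3. The means of the last groups were 15.8 ± 12.3 CPM (day 5) and 55.7 ± 41.3 CPM (day 7). The day means are therefore ordered day 7, 1, 5, 3 and 0, but neighbors in that order do not differ beyond their spread.

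Together the 4 globins made up between 0.000899% of counts (day 0 replicate 3, 95% Wilson interval 0.000789 to 0.00102) and 0.022% (day 7 replicate 3, 0.0214 to 0.0226). These intervals cover counting error only. The summed globin counts were 383, 582 and 224 before treatment and 442, 327 and 3791 a day into it. Day 3 tumors held 707, 286 and 258 globin counts and day 5 tumors held 668, 427 and 1879. The last harvest, day 7, gave 696, 3820 and 5214. Globin RNA was thus a trace component of each tumor, even where it was 24.5 times the lowest share.

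The composition of the globin RNA moved far less than its amount. Alpha globins made up between 34.1% and 54.5% of globin counts, with a median of 44.1%, and the lowest share was in day 7 replicate 1. Within the pairs, Hba-a1 took between 65.7% and 83.8% of alpha counts (median 74.4%) and Hbb-bs between 66.9% and 86.6% of beta counts (median 76.1%). In day 1 replicate 3 and in day 7 replicates 2 and 3, where counts were highest, the Hba-a1 share was 75.3%, 74.4% and 75.2%, and the Hbb-bs share 76.1%, 73.6% and 75.5%. Summing each pair left log2 differences from day 0 of 1.78 and 1.80 on day 1 and of 3.05 and 3.26 on day 7 for alpha and beta globin.

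Alas2 was high with the globins in day 7 replicates 2 and 3, but not in day 1 replicate 3. Its counts were 21 in day 1 replicate 3, 34 in day 5 replicate 3, 49 in day 7 replicate 2 and 78 in day 7 replicate 3. Set against globin counts, this was 5.54 Alas2 counts per 1000 globin counts in day 1 replicate 3 (95% Wilson interval 3.62 to 8.48), the lowest of all 15 tumors. Day 7 replicates 2 and 3 held 12.8 (9.69 to 17) and 15 (12 to 18.7), and day 5 replicate 3 held 18.1 (12.9 to 25.4). Each interval covers the counting error of a single tumor. As the genes were chosen for their high day 7 levels, nothing is read from the day 7 ratios. The highest ratio, 58 per 1000, was in day 0 replicate 3, where both were low. The difference between days in this ratio was not tested.

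**Figure D3:**
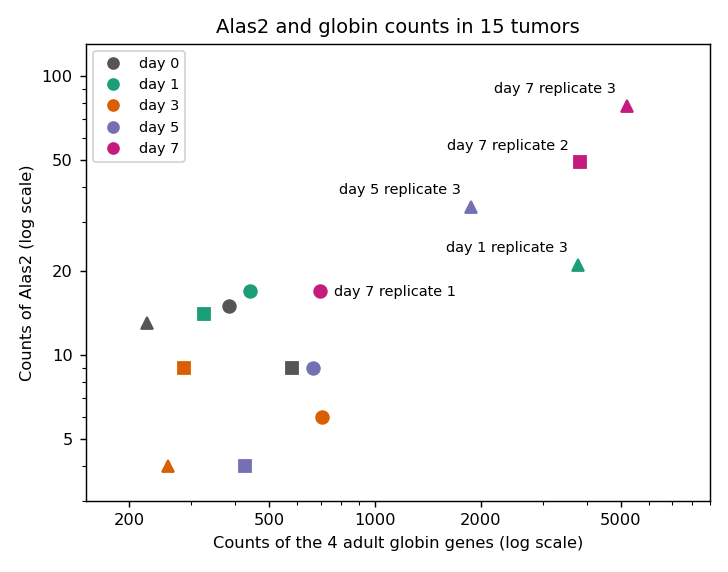
Counts of Alas2 against counts of the 4 globin genes in each of the 15 tumors, both on log scales, with color for the harvest day and shape for the replicate. Day 1 replicate 3 and day 7 replicate 2 have like globin counts, 3791 and 3820, but 21 and 49 Alas2 counts.

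Across the 15 tumors, log2 levels of the 4 globins varied together, with Pearson's r from 0.93 to 0.98 and Spearman's rho from 0.82 to 0.94 for the 6 pairs. Leaving out day 7 replicates 2 and 3, the tumors farthest from the median, r remained between 0.86 and 0.97. Alas2 correlated with the globins at r from 0.73 to 0.82 and rho from 0.56 to 0.73, and at r from 0.40 to 0.60 without those tumors. The tumors share days, and the members of a pair share reads, so these values are given as descriptions.

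Per kilobase of the main coding transcript, Hbb-bs was the highest of the 5 genes in all 15 tumors and Alas2 the lowest in all 15. The median level was 14.9 CPM per kilobase for Hbb-bs, 10.1 for Hba-a1, 3.72 for Hba-a2, 3.35 for Hbb-bt and 0.255 for Alas2. Over the 15 tumors the ranges of Hba-a2 and Hbb-bt overlapped, from 1.83 to 40.4 and from 1.25 to 44.5 CPM per kilobase. Because shared reads were divided between the members of a pair, and BALB/c alleles differ from the reference, the order of single globins is uncertain.

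Other genes of red blood cells did not show the pattern of the globins. The embryonic and minor globins, which include Hba-x and Hbb-y of the embryo, had 8 genes in the table. Of these, 6 were at 0 in all 15 tumors and none exceeded 3 counts. Genes of the red cell membrane were largely absent. Slc4a1, the anion exchanger of the red cell membrane, had at most 4 counts in any tumor, with 1, 1 and 0 on day 7. Kel, a blood group gene, had none. Counts this low are at or near the limit that a count of 0 allows, so differences between days were not detectable at this depth.

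Of 16 red cell membrane genes, 12 were tested, and 4 of them had a higher fitted level on day 7 than in untreated tumors. The list median was -0.19 on the log2 scale, beside -0.02 over all genes. The highest difference of the list was 0.39 for Rhag, a Rhesus-complex channel. Rhag was rare, with 6, 4 and 11 counts on day 0 and 5, 14 and 7 on day 7. Of 12 late erythroid genes, 8 were tested and 4 were higher on day 7, with a median of 0.01 and a range from -0.58 for Car2, a carbonic anhydrase, to 0.28 for Tspan33, a membrane protein. Car2 measured 3.30, 2.20 and 4.36 CPM on day 0 and 1.59, 3.76 and 1.21 CPM on day 7, and Tspan33 measured 0.977, 1.79 and 1.64 CPM and then 1.46, 2.24 and 1.63 CPM. Both genes overlapped between the days.

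Heme synthesis beyond Alas2 was nearly level. All 12 genes of that list were tested, 8 were higher on day 7, and the differences ran from -0.10 for Slc25a37, the mitochondrial iron importer, to 0.17 for Urod, an enzyme of the middle of the pathway. Urod measured 23.7, 30.5 and 29.7 CPM on day 0 and 36.2, 26.7 and 31.6 CPM on day 7. Alas1 differed by -0.09 and Fech, which inserts iron into heme, by 0.05. Fech measured between 44.5 and 56.5 CPM in all 15 tumors, in contrast to the globins, whose highest and lowest tumors were more than an order of magnitude apart.

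Regulators and receptors of red cell formation did not show the day 7 rise of the globins either. Of 16 genes, 14 were tested and 4 were higher on day 7, with a median of -0.19. The lowest was Gata1 at -1.33, with 15, 17 and 12 counts on day 0 and 6, 9 and 1 on day 7. The highest was Tfrc, the transferrin receptor that takes up iron, at 0.38, with 199, 154 and 140 CPM on day 0 and 235, 168 and 236 CPM on day 7. Klf1 had at most 6 counts in any tumor, and the erythropoietin receptor gene Epor differed by 0.24. The counts cannot show a small red cell part in abundant genes such as Fech and Tfrc, or in rare ones such as Klf1.

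In the tested comparisons edgeR called 0% of all genes after adjustment, so the lack of calls in these 4 erythroid lists is no result about them. On day 3 against day 0, DESeq2 called 1 of 12 membrane genes, 3 of 8 late erythroid genes, 1 of 14 regulators and 0 of 12 heme synthesis genes, beside 13.5% of all genes. Tmod1 (3.28 on the log2 scale), Tspan33 (2.15), Blvrb (0.92) and Lmo2 (1.39) were higher on day 3, and Bpgm was lower (-0.69). DESeq2 also called Tmod1 on day 3 against day 1, at 3.84, beside 0.182% of all genes. Tmod1 measured 18.0 CPM in day 3 replicate 1, with its excess of muscle RNA, and 0.662 and 1.21 CPM in the other 2 tumors of that day. The part of that tumor in the other DESeq2 calls was not tested.

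**Figure D4:**
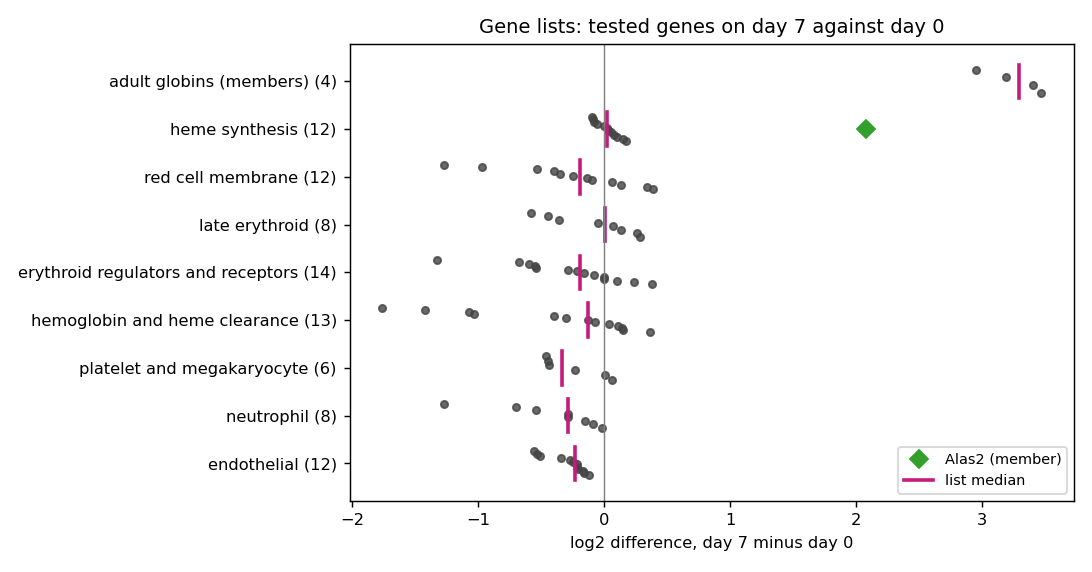
Fitted log2 difference between day 7 and day 0 for each tested gene of 9 lists, with the number of tested genes in parentheses, a vertical bar at the list median and a diamond for Alas2. The 4 adult globins lie between 2.95 and 3.47 and Alas2 at 2.08, while the other 12 heme synthesis genes lie between -0.10 and 0.17.

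Genes that bind or break down hemoglobin were followed because they handle the contents of lysed red cells. Hmox1, heme oxygenase, measured 95.7, 136 and 98.9 CPM in untreated tumors and 144, 140 and 702 CPM a day after treatment began. It measured 218, 300 and 217 CPM in day 3 tumors, then 132, 184 and 171 CPM on day 5 and 158, 140 and 126 CPM on day 7. By far its highest value was in day 1 replicate 3, the tumor with high globins, while the high-globin tumors of day 7 were no higher than replicate 1. Slc48a1, a heme transporter of macrophage lysosomes, was also highest in day 1 replicate 3, at 354 CPM, against 129 to 239 CPM in the other 14. Hmox1 differed from day 0 by 1.58 on day 1 (SE 0.49, adjusted p = 1 with edgeR and adjusted p = 0.187 with DESeq2) and by 1.15 on day 3 (adjusted p = 0.148 with edgeR).

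Haptoglobin and its receptor, which take up free hemoglobin, went with other tumors. Hp measured 5.70, 18.3 and 13.9 CPM on day 0 and 1.22, 8.74 and 1.17 CPM on day 7, a log2 difference of -1.76, and it was highest in day 3 replicate 1 at 42.4 CPM. Cd163 measured 33.3, 18.4 and 20.8 CPM on day 0 and 3.01, 18.7 and 5.43 CPM on day 7. Of the 13 clearance genes, all tested, 5 were higher on day 7 than in untreated tumors, and the list median was -0.13. As for all genes (0%), edgeR called no clearance gene after adjustment in the 5 tested comparisons. DESeq2 called 6 of 13 on day 3 against day 0, all higher on day 3, beside 13.5% of all genes. The part of day 3 replicate 1, the tumor that stood apart, in these calls was not tested.

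**Figure D5:**
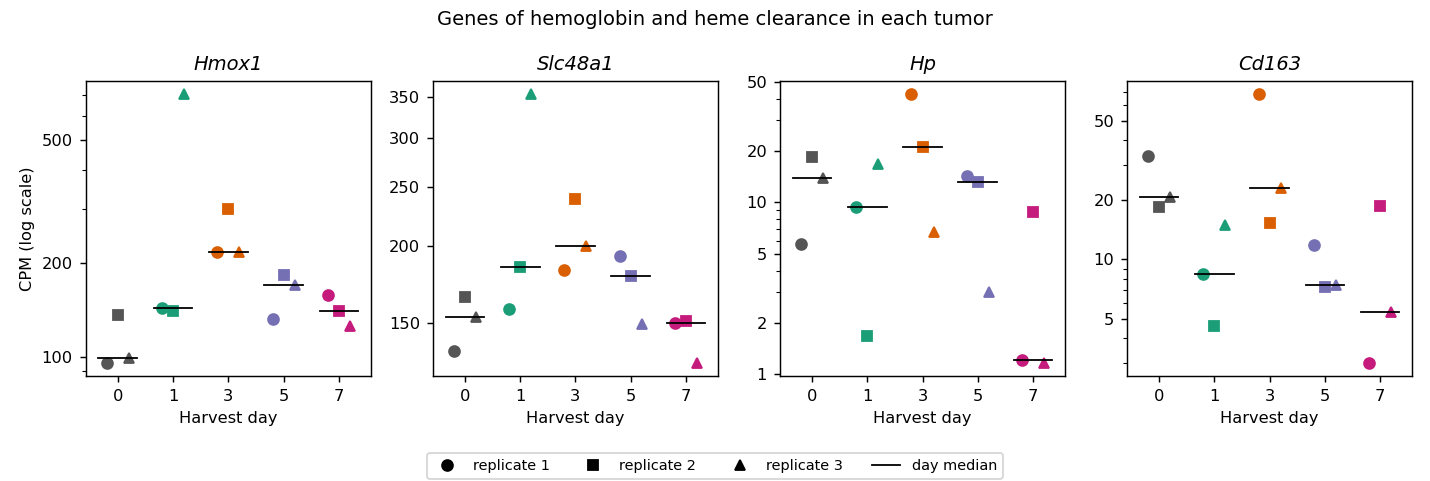
Level of 4 genes of hemoglobin and heme clearance (CPM, log scale) in the 3 tumors of each harvest day, with marker shape for the replicate and a line at the day median. Hmox1 at 702 CPM and Slc48a1 at 354 CPM are highest in day 1 replicate 3, while Hp and Cd163 are highest in day 3 replicate 1.

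Markers of other cells found in blood or around vessels were high in some high-globin tumors and low in others. The platelet, neutrophil, B cell and endothelial lists were each highest of their day in day 1 replicate 3 and day 7 replicate 2, and each lowest of their day in day 5 replicate 3 and day 7 replicate 3. The summed level of 11 platelet and megakaryocyte genes was 27.1 to 52.7 CPM in untreated tumors, 23.6 to 47.8 CPM (day 1), 32.4 to 57.5 CPM (day 3), 28.4 to 37.9 CPM (day 5) and 25.2 to 38.6 CPM (day 7). The 2 ends of the day 7 range were replicate 3, with the most globin RNA, and replicate 2. Gp9 and Tubb1 of this list did not exceed 3 counts. Of the 6 platelet genes tested, 2 were higher on day 7, from -0.46 for Pf4, a platelet chemokine that macrophages can also express, to 0.06 for Gp6, the collagen receptor. Pf4 measured 38.4, 13.9 and 22.6 CPM on day 0 and 14.4, 27.0 and 13.2 CPM on day 7, and Gp6 had 18, 9 and 6 counts and then 7, 12 and 12.

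The 13 neutrophil genes summed to 61.9 to 102 CPM in untreated tumors, 45.8 to 163 CPM (day 1), 98.7 to 240 CPM (day 3), 43.9 to 206 CPM (day 5) and 27.5 to 86.2 CPM (day 7). None of the 8 tested was higher on day 7, from -1.27 for Mmp9, a matrix protease, to -0.02 for Mpo, the granule peroxidase, while Ngp and Elane did not exceed 3 counts. S100a8, a neutrophil alarmin, was highest in day 1 replicate 3 at 8.39 CPM, against at most 4.52 CPM in every other tumor. The 12 endothelial genes summed to 330 to 345 CPM in untreated tumors, 275 to 485 CPM (day 1), 340 to 970 CPM (day 3), 242 to 569 CPM (day 5) and 197 to 351 CPM (day 7). None of the 12 was higher on day 7, from -0.56 for Emcn to -0.12 for Cldn5. The 8 B cell genes stayed between 3.43 and 8.64 CPM in all but day 3 replicate 1, at 38.0 CPM, and 5 of the 6 tested were higher on day 7, from -0.31 for Fcer2a to 0.68 for Cd79a.

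Mesenchymal and adipocyte genes divided the high-globin tumors in the same way, highest of their day in day 1 replicate 3 and day 7 replicate 2 and lowest in day 5 replicate 3 and day 7 replicate 3. Skeletal muscle genes summed to 2.97 CPM in day 7 replicate 3 and 173 CPM in day 7 replicate 2, the tumors with the most globin RNA, and none of the 10 was higher on day 7, from -1.65 for Acta1 to -0.61 for Pvalb. Adipocyte genes summed to 9.99 and 36.3 CPM in the same tumors, and 1 of 7 tested was higher on day 7, from -3.19 for Cidec to 0.04 for Retn. Of 8 mesenchymal genes 1 was higher on day 7, from -0.62 for Thy1 to 0.20 for S100a4, and of 4 tested epithelial genes 2 were, from -1.24 for Krt19 to 0.26 for Krt18. The part of the makeup of each tumor in its globin level was not tested.

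The genes most like the 5 over the 15 tumors were mainly predicted genes and pseudogenes rather than red cell genes. Among 15489 other genes, ranked by Pearson's r of log2 CPM with the mean log2 CPM of the 5, the 10 nearest were Gm10284 at 0.801, Gm12286 at 0.759, PARK2 at 0.745, Gm13370 and Gm10240 at 0.740, Eda2r and Gm15421 at 0.700, Rps6-ps3 at 0.689, Gm3272 at 0.650 and RP24-243J4.5 at 0.645. Gm13370 and Gm10240 had like values in every tumor, from 20.4 to 74.1 CPM. These correlations are lower than those among the globins themselves, and 1 gene passed 0.8. No gene of the heme synthesis, red cell membrane, late erythroid or regulator lists was among the nearest 100.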

How the data were processed

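RNA sequencing of 15 tumors, 3 on each of 5 harvest days, was analysed at the level of genes. The authors deposited estimated counts per gene and tumor, made from 100-base single-end poly(A) reads with FastQC 0.11.3, kallisto 0.43.0 and tximport on mm10; the transcript set and strandedness are not given in the sources used here. The values were whole numbers, so no rounding was needed. Of 32544 entries, 1 was a gene name turned into a date and was left out (at most 0.0268% of counts). The harvest day came from each tumor's time point label. All replicate pairs differed by more than counting noise. Whether a p-value reflects more than the spread between 3 tumors of a single experiment cannot be told.

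Genes were kept where at least 3 tumors exceeded a CPM of 0.366, the study's filter. CPM values were scaled with TMM factors. Differences were tested with edgeR 4.0.16 in R 4.3.3 (two-sided quasi-likelihood F test, 15 tumors fitted jointly by harvest day), with Benjamini-Hochberg adjustment over all genes. A check on simulated counts gave every gene the median spread, so it says nothing about genes as variable as the globins. DESeq2 1.42.0, other normalizations, no filter, a replicate block, only the groups compared, summed paralogs and leaving out each tumor were alternatives. The 5 genes and all lists were chosen with earlier results of these data known. Named genes were the 5, preset genes of each list, the list genes with the highest and lowest day 7 difference, and the 10 genes most correlated with the 5 (log2 CPM, prior count 2). Tmod1, Slc48a1, Kel and other genes named for a count or a high tumor were chosen after their values were seen. Some genes that this rule names are not reported here. Sequences came from RefSeq (GRCm38.p6) and GENCODE M21.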

Additional observations from a re-analysis of the deposited data

How the results depend on the processing

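None of the 5 genes was called in any of the 5 tested comparisons under any alternative run. Over all genes, the edgeR alternatives mostly called 0 and at most 61, on day 3 against day 0 without day 1 replicate 3. DESeq2 called between 0% and 13.5% of all genes. The lack of calls is therefore no result about the 5. The median difference of the 5 on day 7 ranged from 2.53 to 3.65 on leaving out a tumor each time. Replicate numbers did not pair the tumors, since 9 of 30 same-numbered pairs of different days had correlations of deviations over 0.1 (range -0.62 to 0.51); with the replicate block no member was called, and the median of the 5 was 2.79 for day 7 against day 0 (3.19 without the block), 1.05 for day 1 against day 0 (1.74), 0.10 for day 3 against day 0 (0.12), 0.86 for day 5 against day 0 (1.38), -0.95 for day 3 against day 1 (-1.62) and 0.67 for day 5 against day 3 (1.20). On leaving out a tumor each time, directions turned for some uncalled differences, and the cause was not tested: day 1 against day 0, Hba-a1 (-0.32 to 2.15) and Hbb-bs (-0.11 to 2.21); day 3 against day 0, Hba-a1 (-0.69 to 0.46), Hba-a2 (-0.23 to 1.03), Hbb-bs (-0.34 to 0.57) and Hbb-bt (-0.75 to 0.65); day 5 against day 0, Hbb-bt (-0.01 to 1.92) and Alas2 (-0.93 to 0.77); day 3 against day 1, Hba-a1 (-2.38 to 0.35), Hba-a2 (-2.37 to 0.42) and Hbb-bs (-2.10 to 0.24); day 5 against day 3, Hbb-bt (-0.29 to 2.27) and Alas2 (-0.05 to 1.65). No other alternative turned a direction. Of the 10 genes most like the 5, 6 were shared with a ranking by Spearman's rho, 5 without day 3 replicate 1 and 1 with deviations from day means. Alas2 rested on 4 to 78 counts a tumor, which limits its precision most.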
